A study of Homo sapiens with 4 samples.

Results

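Control-only borders are the ends of chromatin domains that were called in both libraries of control H1 cells and in neither library of cells with an shRNA against HNRNPU. A border was any start or end of a domain on chromosomes 1 to 22, counted once per library. The members were the borders of shLUC replicate 1 that had a border within 40 kb (1 bin of the maps) in shLUC replicate 2 and none within 40 kb in either shHNRNPU library. Of the 4652 autosomal borders of shLUC replicate 1, 3193 were shared with shLUC replicate 2 and 381 of those met the rule. The members were chosen by the measured presence or absence of borders in all 4 libraries, so their number and their absence from the knockdown are descriptions and were not tested.

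All 4 libraries were Hi-C maps of H1, a human embryonic stem cell line grown without feeders in mTeSR1 medium on Matrigel. The shLUC group (2 libraries) carried a lentiviral shRNA against luciferase, a gene that human cells lack, and the shHNRNPU group (2 libraries) carried a lentiviral shRNA against HNRNPU. Both groups were selected with puromycin, fixed with 1% formaldehyde for 10 min and cut with HindIII. The labels give neither the shRNA sequence nor whether the repeats came from separate infections, so spread within a group may be technical. The files give positions of domains, of boundary regions between domains and of gaps, with no contact counts, depth or expression, so the reduction of HNRNPU and the state of the cells were not measured here.

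Chromosomes fold into domains, stretches in which loci contact each other more than loci outside, and the borders between domains limit contacts across them. Many borders are sites where cohesin, which extrudes loops of chromatin, is stopped by the DNA-binding protein CTCF, and many lie at active gene starts. HNRNPU, also called SAF-A, is an abundant nuclear protein that binds RNA and DNA and has been linked to the organisation of interphase chromatin.

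Promoter sequences are shown for 4 genes that start within 40 kb of a control-only border, because the borders described below are located by these genes. COX20 and HNRNPU start on opposite sides of the same border of shLUC replicate 1 on chromosome 1. ZSCAN10 lies by the border on chromosome 16. CASP8 holds a border of shLUC replicate 1 inside it on chromosome 2. Each is the 250 bases before the start site in RefSeq (GRCh38.p14), 5′ to 3′ along the gene, with matches to the GC box GGGCGG on either strand in capitals. The coordinates were chr1:244835408-244835657, plus strand for COX20, chr1:244864544-244864793, minus strand for HNRNPU, chr16:3099295-3099544, minus strand for ZSCAN10 and chr2:201233213-201233462, plus strand for CASP8.
COX20: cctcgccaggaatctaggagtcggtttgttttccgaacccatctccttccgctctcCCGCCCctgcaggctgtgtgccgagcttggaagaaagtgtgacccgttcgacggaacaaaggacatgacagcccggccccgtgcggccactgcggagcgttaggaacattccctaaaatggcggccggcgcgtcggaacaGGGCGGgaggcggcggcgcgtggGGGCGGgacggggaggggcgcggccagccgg
HNRNPU: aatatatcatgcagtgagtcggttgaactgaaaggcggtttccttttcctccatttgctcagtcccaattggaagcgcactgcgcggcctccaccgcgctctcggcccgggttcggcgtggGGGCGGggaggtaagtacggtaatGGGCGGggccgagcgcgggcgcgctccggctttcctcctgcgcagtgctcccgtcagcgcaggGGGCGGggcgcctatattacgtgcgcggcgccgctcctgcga
ZSCAN10: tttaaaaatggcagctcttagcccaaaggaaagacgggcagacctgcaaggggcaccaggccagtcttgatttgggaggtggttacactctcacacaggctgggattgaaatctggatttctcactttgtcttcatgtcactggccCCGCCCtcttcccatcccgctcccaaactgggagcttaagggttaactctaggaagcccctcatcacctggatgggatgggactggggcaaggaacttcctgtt
CASP8: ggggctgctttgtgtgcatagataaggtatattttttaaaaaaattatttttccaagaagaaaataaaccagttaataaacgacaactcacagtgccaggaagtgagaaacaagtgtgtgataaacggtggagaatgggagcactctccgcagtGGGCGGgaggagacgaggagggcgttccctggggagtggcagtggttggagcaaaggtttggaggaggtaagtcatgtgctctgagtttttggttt

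The next stretches hold every match to the CTCF core (CCA, any 2 bases, AG, any 2 bases, GGC), searched on both strands and shown in capitals, in the promoters of genes that start within 40 kb of a control-only border. They lay at CUL5 (chr11:108008796-108008855, plus strand), ANKRD62 (chr18:12093593-12093636, plus strand), MB (chr22:35623439-35623498, minus strand), TMEM192 (chr4:165112851-165112886, minus strand), SPEF2 (chr5:35617770-35617829, plus strand) and LRRC1 (chr6:53794812-53794871, plus strand), all in GRCh38.p14.
CUL5: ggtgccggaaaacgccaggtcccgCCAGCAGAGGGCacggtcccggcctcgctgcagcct
ANKRD62: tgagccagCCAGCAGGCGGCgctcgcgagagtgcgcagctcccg
MB: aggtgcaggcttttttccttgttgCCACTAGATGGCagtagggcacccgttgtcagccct
TMEM192: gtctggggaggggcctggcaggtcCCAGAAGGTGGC
SPEF2: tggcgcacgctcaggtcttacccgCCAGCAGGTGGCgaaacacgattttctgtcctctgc
LRRC1: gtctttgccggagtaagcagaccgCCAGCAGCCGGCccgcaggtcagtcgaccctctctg

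These 6 matches came from 455 promoters of 336 genes, which is 1.32% (Wilson interval 0.606 to 2.85) of the promoters near control-only borders. Of promoters near borders kept in all 4 libraries 3.53% (2.73 to 4.55) held the letters. The share was 3.52% (2.53 to 4.88) near borders absent from 1 shHNRNPU library only. It was 2.07% (0.706 to 5.91) near knockdown-only borders and 2.55% (2.34 to 2.77) over all 21155 promoters known here. The interval for control-only borders overlapped each of the others, so no lower share was read from these values. Some genes gave several promoters, so the promoters counted are not independent. The GC box was present in 60.2% of promoters near control-only borders, 54.0% near kept borders, 60.8% near borders absent from 1 shHNRNPU library only and 56.6% of all. The HindIII site AAGCTT was present in 4.40%, 5.16%, 3.52% and 5.29% of these sets. A GC box can share bases with a CTCF core. Promoters near control-only borders had a median GC content of 64%, against 64.3% near borders absent from 1 shHNRNPU library only and 62.7% over all promoters. The borders at MB, TMEM192, ANKRD62 and LRRC1 had no shHNRNPU border within 120 kb in either library, while those at CUL5 and SPEF2 had 1 at 80 kb in shHNRNPU replicate 2. A match is a run of letters and not a measured site of binding.

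The 4 maps differed in the number of borders. The autosomes held 4652 and 4650 borders in shLUC, against 4513 (replicate 1) and 3956 (replicate 2) in shHNRNPU. Median autosomal domains measured 560, 560, 600 and 640 kb in the same order, and domains of at least 2 Mb numbered 110, 117, 108 and 204. The second shHNRNPU library stood apart, with fewer borders and more long domains. No pair of libraries held the same map. The shLUC pair had 532 identical autosomal domains, the shHNRNPU pair had 375, and the 4 pairs across groups had 325 to 503, so the number within a group was close to or within the range across groups.

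To place the control-only borders among all borders shared by the shLUC libraries, each shared border was looked up in each shHNRNPU library. Of 3193 shared borders, 1902 (59.6%) were found in both shHNRNPU libraries, 642 (20.1%) in replicate 1 only, 268 (8.39%) in replicate 2 only and 381 (11.9%, 95% Wilson interval 10.9 to 13.1) in neither. The same rule with the groups exchanged started from 2595 borders shared by the shHNRNPU libraries and left 198 (7.63%, 6.67 to 8.72) that were in neither shLUC library, which are called knockdown-only borders. These intervals cover counting error only, and neighbouring borders are not independent. With shHNRNPU replicate 2 left out, 649 shared shLUC borders (20.3%) were absent from the knockdown, while 810 of the 4513 borders of the remaining shHNRNPU library (17.9%) were absent from the controls. The 649 had to be in 2 libraries and absent from 1, whereas the 810 were in 1 library and absent from 2. With shHNRNPU replicate 1 left out the counts were 1023 (32.0%) and 847 (21.4%). With shLUC replicate 2 left out they were 1076 (23.1%) and 465 (17.9%), and with shLUC replicate 1 left out 1058 (22.8%) and 447 (17.2%). Leaving out a library thus sets unlike rules for the 2 directions, so no direction was read from these counts or shares.

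How often an absence from 1 library of a group recurred in the other was counted over all shared borders. Among shared shLUC borders absent from shHNRNPU replicate 1, 381 of 649 (58.7%, 54.9 to 62.4) were also absent from replicate 2, against 642 of 2544 (25.2%, 23.6 to 27.0) of those present in replicate 1. Read the other way, 37.2% (34.3 to 40.2) of the 1023 borders absent from replicate 2 were absent from replicate 1, against 12.4% (11.0 to 13.8) of the 2170 present there. The 381 are the control-only borders themselves, so these shares describe values that the rule used and were not tested. Borders more than 120 kb from gaps gave 58.5% against 27.1% and 35.3% against 12.6%. Such recurrence was also seen with the groups exchanged, where 42.6% (38.2 to 47.1) of shared shHNRNPU borders absent from shLUC replicate 1 were absent from shLUC replicate 2, against 11.7% (10.4 to 13.1) of those present.

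Most of the shared shLUC borders had a knockdown border at the same position or next to it. The nearest border of either shHNRNPU library lay in the same bin for 2007 and 1 bin away for 805, which fell just outside the rule. Just inside it were 129 control-only borders at 80 kb, followed by 51 at 120 kb and 44 at 160 kb. The median distance from a control-only border to the nearest knockdown border was 160 kb (interquartile range 80 to 320 kb), and the farthest lay 1040 kb away. For knockdown-only borders the median distance to a control border was 120 kb (80 to 240 kb), with 85 at 80 kb and 37 at 120 kb.

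**Figure D1:**
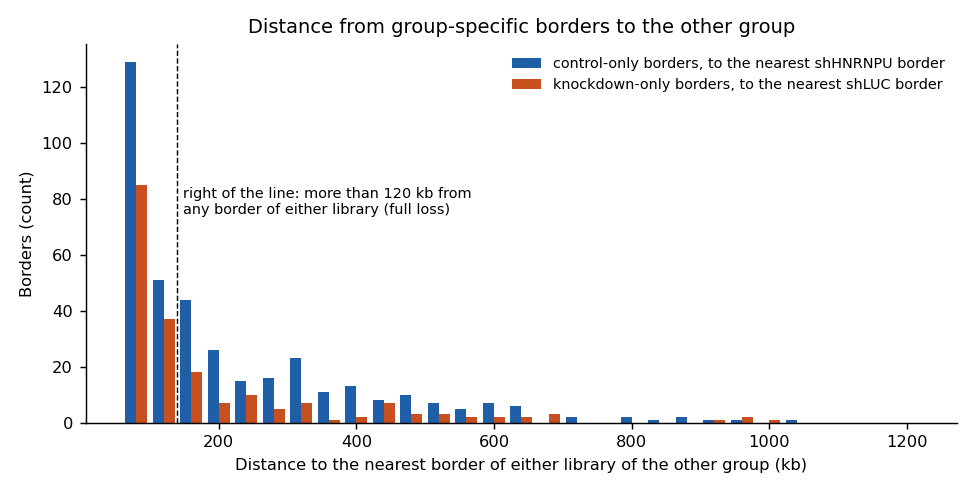
The number of control-only borders (blue) and knockdown-only borders (orange) is plotted against the distance in kb to the nearest border of either library of the other group. Counts fall from 129 and 85 at 80 kb, and the 201 control-only and 76 knockdown-only borders right of the dashed line had none within 120 kb.

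The control-only borders were then divided by how far away the knockdown border was in each library. A shift was a nearest border at 80 or 120 kb in both shHNRNPU libraries, a full loss was none within 120 kb in either, and the rest were mixed. There were 54 shifts (14.2%, 11.0 to 18.0), 126 mixed borders (33.1%) and 201 full losses (52.8%, 47.7 to 57.7). Knockdown-only borders held 74 shifts (37.4%, 30.9 to 44.3), 48 mixed borders and 76 without a control border within 120 kb (38.4%, 31.9 to 45.3). Full loss was thus the larger class among control-only borders, whereas shifts and full absences were about equal in number among knockdown-only borders. The median distance from a control-only border was 200 kb to shHNRNPU replicate 1 and 320 kb to replicate 2, which had fewer borders. From knockdown-only borders it was 160 and 120 kb to shLUC replicates 1 and 2. The part of shHNRNPU replicate 2 in the class sizes was not tested.

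Of the 381 control-only borders 68 (17.8%) lay within 120 kb of a gap of any library, as did 18.9% of borders kept in all 4 libraries and 10.6% of knockdown-only borders. Near gaps 45 of the 68 were full losses (66.2%). Away from gaps 313 members remained, with 50 shifts, 107 mixed borders and 156 full losses (49.8%).

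In 50 of the 54 shifts the nearest borders of both shHNRNPU libraries lay on the same side, in 36 of these they were in the same bin, and in 4 shifts they lay on opposite sides. By the definition of a shift, borders on the same side were at most 40 kb apart. Of the 50, 30 were displaced towards higher and 20 towards lower coordinates. Among knockdown-only borders 70 of 74 shifts were on the same side in both shLUC libraries.

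In the knockdown, nearly all positions of control-only borders were inside a domain, which the rule favours because it leaves no border within 40 kb. A domain of shHNRNPU replicate 1 covered 355 of the 381 positions, a domain of replicate 2 covered 374, and 352 (92.4%, 89.3 to 94.6) were covered in both. The others lay inside a boundary region (21 in either library), inside a gap (1) or at the edge of such an interval (7). Knockdown-only positions were inside a domain of both shLUC libraries in 180 of 198 (90.9%).

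The domains that met at control-only borders were compared with those at other borders. Where domains met on both sides, the smaller one had a median of 360 kb (interquartile range 230 to 520 kb) in shLUC replicate 1 (n = 284) and 320 kb (200 to 520 kb) in replicate 2 (n = 298), against 480 kb (320 to 640 kb) in both for borders kept in all 4 libraries. The larger one had a median of 720 kb in both shLUC libraries, against 800 and 840 kb for kept borders. At borders absent from 1 shHNRNPU library only the smaller domain had a median of 400 kb in both controls and the larger one 720 and 760 kb, and at knockdown-only borders the smaller one had 360 and 400 kb in the shHNRNPU libraries. Short domains were thus not particular to the control-only borders. The domain over the same position had a median of 880 kb (600 to 1360 kb) in shHNRNPU replicate 1 and 1200 kb (800 to 1920 kb) in replicate 2, and the median sum of the pair in the controls was 1120 kb. The rule favours long covering domains, since it keeps positions with no knockdown border nearby. With the groups exchanged the domain over a knockdown-only position had a median of 880 kb in shLUC replicate 1 and 840 kb in replicate 2, like that of shHNRNPU replicate 1. Domains of at least 2 Mb covered 7.89% of the positions in replicate 1 and 24.6% in replicate 2, and 9.19% and 9.04% of knockdown-only positions in the shLUC libraries. The part of the longer domains of replicate 2 as a whole in this was not tested.

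**Figure D2:**
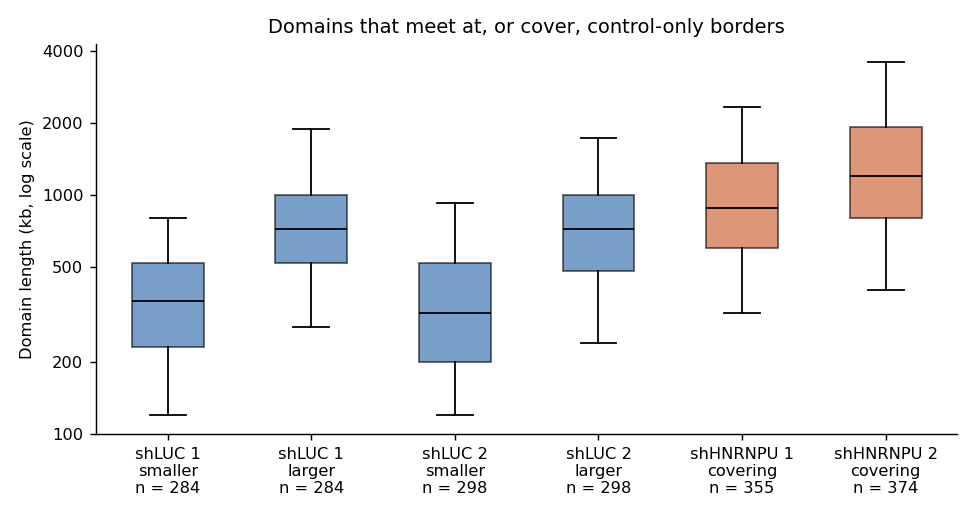
Boxes give domain length in kb (log axis; line, median; box, quartiles; whiskers, 5th to 95th percentile) for the smaller and larger of the domains that met at control-only borders in each shLUC library, and for the domain that covered the position in each shHNRNPU library. The covering domains, which the rule favours when long, had medians of 880 and 1200 kb, and the larger control domains 720 kb.

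The 355 positions covered in shHNRNPU replicate 1 fell into 311 distinct domains, of which 275 held 1 control-only border, 29 held 2 and 7 held at least 3. In 118 of these domains (37.9%) both ends were borders of shLUC replicate 1, in 143 only 1 end was, and in 50 neither was. In replicate 2 there were 315 domains, the longest of 8240 kb, and 125 (39.7%) had both ends at control borders. With the groups exchanged the shares with both ends at shHNRNPU replicate 1 borders were alike, 40.9% in shLUC replicate 1 and 42.5% in replicate 2. The share over all domains was not analysed here. The 2 knockdown libraries drew the covering domain differently, since both ends agreed within 40 kb for 57 of 352 borders (16.2%), 1 end agreed for 170 and neither for 125. The domain was longer in replicate 2 for 215 borders. Among knockdown-only borders the covering domain of the 2 shLUC libraries had the same ends in 71 of 180 (39.4%).

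Clean merges were borders where neighbouring control domains and the knockdown domain that replaced them had outer ends within 40 kb of those in shLUC replicate 1 in each other library. Away from gaps 10 of 313 control-only borders (3.19%) met this, and 8 are described. On chromosome 8 the border at position 75600000 (75560000 in shLUC replicate 2) separated domains of 640 and 720 kb in shLUC replicate 1 and of 600 and 800 kb in replicate 2. A domain of 1400 kb, from 74960001 to 76360000, covered it in both shHNRNPU libraries. The nearest gene was HNF4G, a nuclear receptor gene, 33.2 kb away.

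On chromosome 14 the border at 63800000, in the same bin in both shLUC libraries, lay inside SYNE2, which encodes nesprin-2 of the nuclear envelope. Domains of 480 and 520 kb met there in both controls, and domains of 1040 and 1000 kb covered it in shHNRNPU replicates 1 and 2. The outer end at 64320000 was the same in all 4 libraries. On chromosome 12 the border at 77720000 lay inside NAV3, a neuron navigator gene, in both controls, with domains of 680 kb on 1 side and of 240 or 280 kb on the other. A domain of 920 kb covered it in each shHNRNPU library.

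CASP8, which encodes the initiator caspase of death receptor signalling, held the border at 201240000 on chromosome 2 in shLUC replicate 1, 6.54 kb from its start. In shLUC replicate 2 the border was at 201200000, outside the gene. Domains of 360 and 400 kb met there in shLUC replicate 1, and of 320 and 480 kb in replicate 2. In shHNRNPU replicates 1 and 2 domains of 800 and 760 kb covered it, with lower ends 80 kb apart. FGF14, which encodes an intracellular regulator of sodium channels, held the border at 101760000 on chromosome 13, where control domains of 680 kb met smaller ones of 200 and 160 kb, and domains of 800 and 840 kb covered it in the knockdown. Of the clean merges described, this had the closest knockdown border, at 160 kb.

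The other 3 named merges were on chromosome 8 at 19800000, 17.4 kb from INTS10 (a subunit of the Integrator complex), on chromosome 1 at 182440000, 10.1 kb from the start of RGSL1, and on chromosome 6 at 130320000 inside SAMD3. Their covering domains measured 880, 800 and 800 kb in shHNRNPU replicate 1 and 800, 680 and 760 kb in replicate 2. At RGSL1 the lower ends in the knockdown libraries were also 80 kb apart. Borders were placed in genes by their position in replicate 1 of the group that held them. With bins of 40 kb, replicate 2 can place them outside the gene, as at CASP8. Whether the borders inside genes fall in exons or introns was not analysed here.

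**Figure D3:**
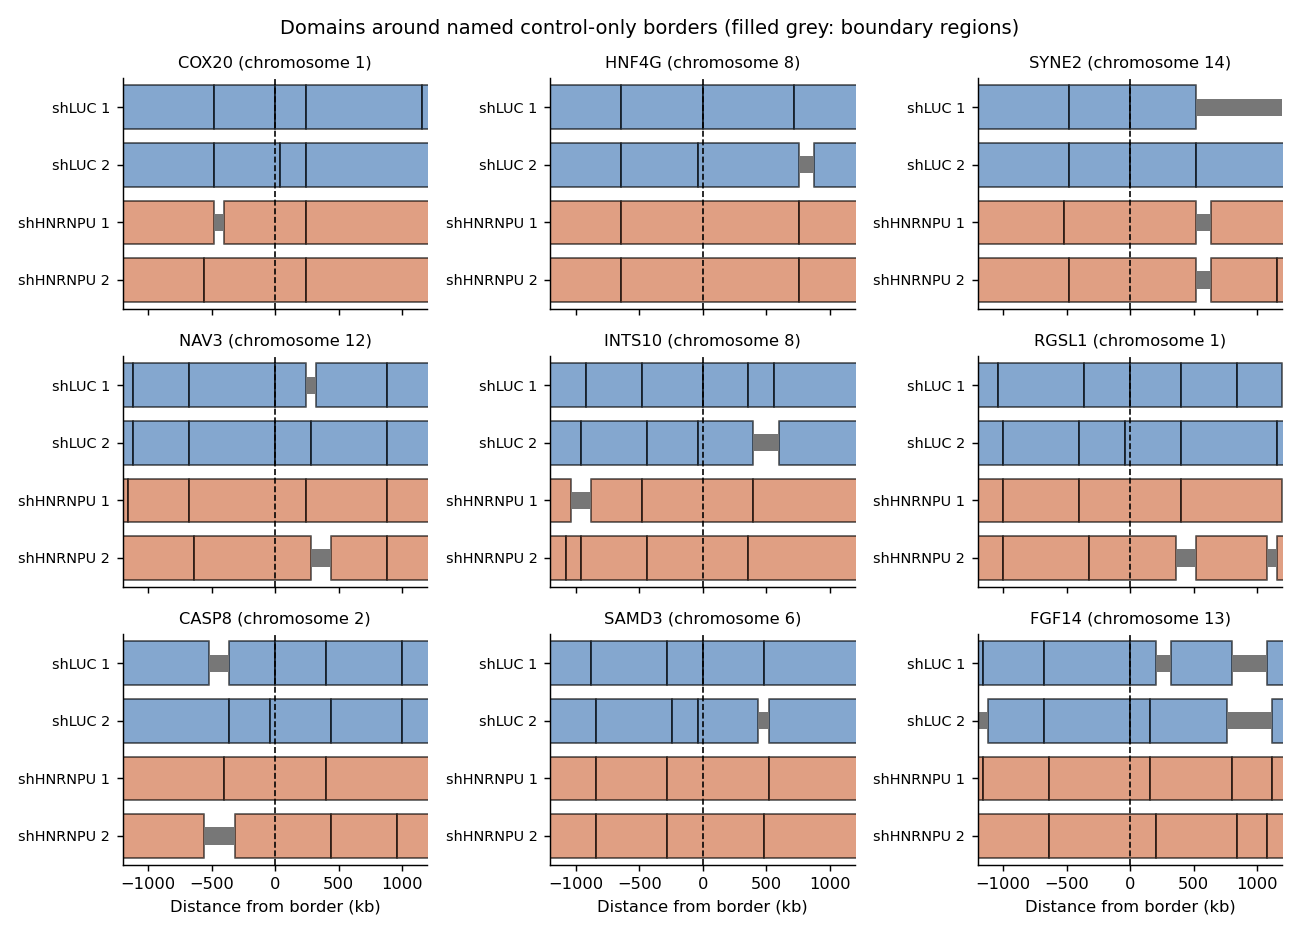
Domains (blue in shLUC, orange in shHNRNPU) and boundary regions (grey) of the 4 libraries are drawn within 1200 kb of 9 control-only borders, by distance in kb from the border in shLUC replicate 1 (dashed line). Both shLUC libraries have a border at or next to the line, and both shHNRNPU libraries have a domain across it, such as the 1400 kb domain at HNF4G and the 640 and 800 kb domains at COX20.

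The COX20 border lay next to the gene that was targeted. HNRNPU belonged to a list of genes of chromatin architecture, and COX20 encodes an assembly factor of cytochrome c oxidase. The border was at 244840000 on chromosome 1 in shLUC replicate 1, inside COX20 and 4.34 kb from its start, and at 244880000 in shLUC replicate 2. The HNRNPU start site, at 244864543, lay between these positions, 24.5 kb from the first. In shLUC replicate 1 domains of 480 and 240 kb met there, and in replicate 2 domains of 520 and 200 kb. In the knockdown the region from 244440001 to 245080000 (640 kb) was a domain of replicate 1, and that from 244280001 to 245080000 (800 kb) was a domain of replicate 2. All 4 libraries had the upper end at 245080000, while the lower ends in both knockdown libraries lay 80 kb from that in shLUC replicate 1, so this was not a clean merge.

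The control-only borders farthest from any knockdown border away from gaps lay on chromosomes 16, 4 and 12. At 3120000 on chromosome 16, in the same bin in both controls, domains of 1000 and 360 kb (replicate 1) or 1000 and 800 kb (replicate 2) met inside ZNF205, a zinc finger gene. The nearest knockdown borders were 920 and 1760 kb away, and domains of 2880 and 4280 kb covered the position. Besides ZNF205, ZNF213 started within 40 kb, as did ZSCAN10, a zinc finger gene of the pluripotency list, whose start was 20.7 kb away. The border at 5840000 on chromosome 4, inside CRMP1 (a mediator of semaphorin signalling in neurons), was covered by domains of 2160 and 2280 kb. Those at 49600000 on chromosome 12, in FAM186B, and at 68520000 on chromosome 16, 19.3 kb from the start of ZFP90, were covered by domains of 1680 kb each in shHNRNPU replicate 1 and of 3800 and 5040 kb in replicate 2. The 2 knockdown libraries thus gave domains of like length at CRMP1 and of very unlike length at ZFP90.

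Start sites of protein-coding genes were more frequent at control-only borders than at borders kept in all 4 libraries. On the 21 autosomes with start sites (chromosome 8 was not analysed here), 197 of 351 control-only borders (56.1%, 50.9 to 61.2) had a start within 40 kb, with a mean of 1.01 genes per border. Of kept borders 43.8% (41.5 to 46.1) had 1 (mean 0.680 genes). The share was 52.7% (49.4 to 56.0, mean 0.848 genes) for shared borders absent from 1 shHNRNPU library only. It was 43.2% (mean 0.620 genes) for knockdown-only borders and 32.0% (mean 0.485 genes) for all bin edges. The interval of control-only borders overlapped that of borders absent from 1 library only, so the share is not particular to the control-only ones. Away from gaps the shares were 55.3% (49.6 to 60.9) for control-only, 48.8% (46.2 to 51.3) for kept and 44.4% for knockdown-only borders. Borders absent from 1 shHNRNPU library only had 51.8% (48.2 to 55.3). Leaving out borders near gaps thus brought kept and control-only borders closer, and the intervals then overlapped.

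The share was alike over the classes, with 53.3% of full losses, 59.7% of mixed borders and 58% of shifts. Control-only borders exceeded kept ones on 17 of 21 chromosomes. On the chromosomes 16, 17, 19, 20 and 22 the share was 65.6% for control-only and 36.0% for kept borders, and without those chromosomes it was 54.0% and 44.6%. Weighting kept borders to the chromosomes of the control-only borders gave 43.6%. These counts and shares by chromosome include borders near gaps and were not analysed away from gaps. Of control-only borders 55.6% (50.6 to 60.6) lay inside a protein-coding gene, as did 52.7% (49.5 to 56.0) of those absent from 1 shHNRNPU library only, 44.0% (41.8 to 46.2) of kept and 42.4% (35.7 to 49.4) of knockdown-only borders. Away from gaps the shares were 56.2%, 53.0%, 48.9% and 44.6%, and the intervals of control-only and kept borders overlapped.

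**Figure D4:**
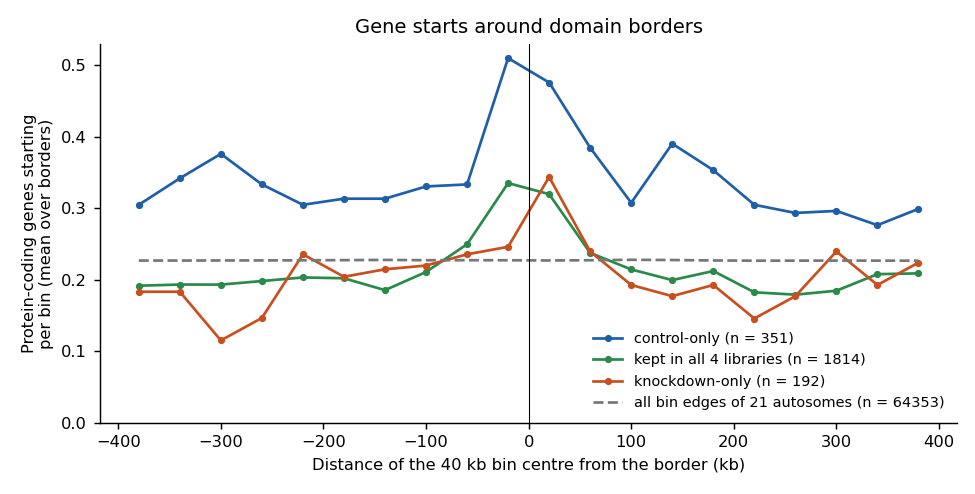
The mean number of protein-coding genes that start in each 40 kb bin is plotted against the distance of the bin centre from the border in kb. Borders absent from a single shHNRNPU library are not drawn. Control-only borders (blue) have 0.510 and 0.476 starts in the bins beside the border and stay above kept borders (green, 0.335 and 0.320), knockdown-only borders (orange) and the mean of all bin edges (dashed, 0.227) across the window.

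The profile of start sites was highest in the bins next to the control-only borders, and it also remained above the mean of all bin edges up to 380 kb away. The border with the most starts, chosen after its value was seen, was at 74480000 on chromosome 2, a shift of 120 kb in both knockdown libraries, with 9 genes within 40 kb that included the homeobox genes LBX2 and TLX2, the Polycomb gene PCGF1 and INO80B of the INO80 remodeller. Another with 8 was at 153640000 on chromosome 1, among S100 genes of calcium-binding proteins, where a domain of 360 kb in replicate 1 and of 1800 kb in replicate 2 covered the position.

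Gene families were counted by the genes that start within 40 kb of a border, and a cluster of neighbouring genes counts several times. Of all 15100 protein-coding genes with a start site, 336 (2.23%) lay by a control-only border, 1220 (8.08%) by a kept one and 118 (0.781%) by a knockdown-only one. Of the pluripotency list 1 of 20 genes, ZSCAN10, lay by a control-only border and 2 by kept ones, and of 17 germ layer genes 0 and 1 did. Of the architecture list 1 of 22, HNRNPU, did, and 1 lay by a kept border. The HOX genes had 0 of 21 by control-only borders and 9 by 2 kept borders, and the protocadherins, cell adhesion genes in clusters, 0 of 55 and 15 by 6 kept borders. At the share of all genes a list of these sizes would hold few or no genes by a control-only border, so nothing was read from these zeros.

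ZNF genes had 3 of 428 at control-only borders, ZNF205, ZNF213 and ZNF354B, against 17 at kept ones. The ZNF354B border, at 178880000 on chromosome 5, was covered by domains of 440 and 3800 kb. Olfactory receptors had 4 of 313, all in the cluster at 55840000 on chromosome 11 (OR5D16, OR5L2, OR5D18 and OR5L1), where shHNRNPU replicate 1 had a border at 80 kb and replicate 2 a domain of 2280 kb. Keratin and keratin-associated genes had 5 of 114, all KRTAP genes of hair proteins at 30320000 on chromosome 21, a position that lay inside boundary regions in both knockdown libraries, from 30240001 and 30280001 to 30480000. The histone list had 1 of 74, the linker histone gene H1-10, near the border at 129280000 on chromosome 3 inside HMCES, which was covered by domains of 1520 and 840 kb. No list had more than 5 genes at control-only borders, and these lay at 1 or 2 borders each.

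Control-only borders were found on every autosome. Chromosome 17 had 25 of 88 shared borders (28.4%, 20.04 to 38.6), and 21 of 72 away from gaps (29.2%). On that chromosome 42.0% of shared borders were absent from shHNRNPU replicate 1 and 47.7% from replicate 2. Over all autosomes these shares were 20.3% and 32.0%. The rule used these absences, so they were not tested. Chromosome 8 had 30 of 161 (18.6%, 13.4 to 25.4) and chromosome 12 the fewest for its borders, 8 of 135 (5.93%, 3.03 to 11.3). The control-only share exceeded the knockdown-only share on 19 of 22 chromosomes. All chromosomes came from the same libraries, and shHNRNPU replicate 2 had the fewest borders, so no direction was read from this count. Within 5 Mb of a chromosome end lay 62 control-only borders (16.3%, 12.9 to 20.3), against 8.57% (7.39 to 9.91) of kept borders. The share was 9.56% (7.82 to 11.6) of those absent from 1 shHNRNPU library only and 6.57% (3.88 to 10.9) of knockdown-only borders. The shares near chromosome ends were not analysed away from gaps or for all bin edges.

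**Figure D5:**
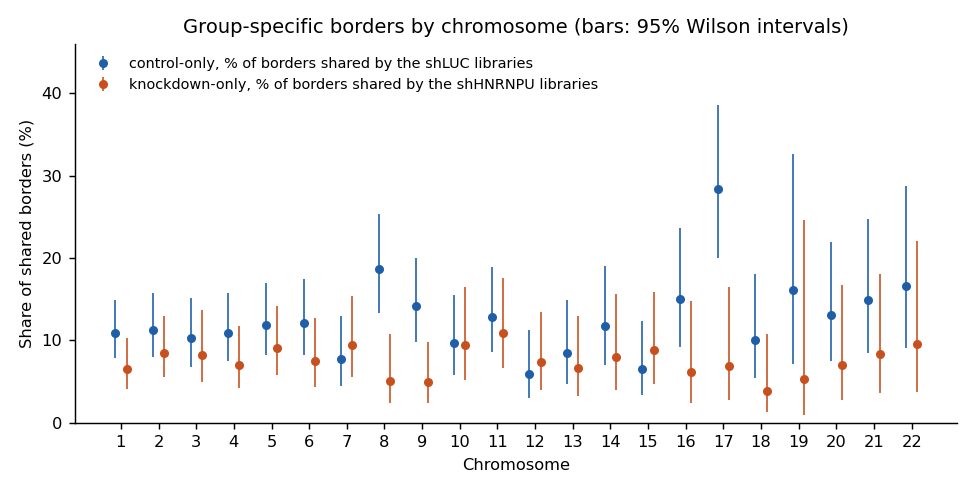
For each autosome the share of borders in percent that were control-only (blue, of those shared by the shLUC libraries) and knockdown-only (orange, of those shared by the shHNRNPU libraries) is plotted with 95% Wilson intervals. Chromosome 17 has the highest control-only share, 28.4% against 6.90% knockdown-only, and the intervals of the 2 sets are apart on chromosomes 8 and 17 only.

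Of control-only borders 54.6% (49.6 to 59.5) lay in the same bin in both shLUC libraries, against 65.7% (63.6 to 67.8) of kept borders. The share was 52.6% (49.4 to 55.9) for borders absent from 1 shHNRNPU library only, and 54.5% of knockdown-only borders lay in the same bin in both shHNRNPU libraries, so a lower share than that of kept borders was not particular to the control-only ones. At 61.7% of control-only borders a domain directly met another domain, at 22.3% it met a boundary region and at 15.7% a gap, against 65.3%, 16.4% and 17.1% of kept borders and 64.3%, 25.4% and 10% of those absent from 1 shHNRNPU library only. Of the 381 control-only borders 331 stood alone and 50 formed 25 pairs that lay close together, which made 356 places in the genome.

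With the groups exchanged, the knockdown-only borders farthest from control borders were at 41280000 on chromosome 11 inside LRRC4C, a gene of synaptic adhesion, at 65560000 on chromosome 4 inside EPHA5, an ephrin receptor gene, and at 49120000 on chromosome 11, 25.1 kb from FOLH1. At LRRC4C a domain of 2280 kb covered the position in both shLUC libraries. Clean splits, the counterpart of clean merges, numbered 8 of 198 knockdown-only borders (4.04%, 2.06 to 7.77). Clean merges numbered 10 of 381 control-only borders (2.62%, 1.43 to 4.76). The clean splits included the border at 229280000 on chromosome 2 by PID1. There a control domain of 1080 kb in both libraries was divided into 560 and 440 kb in shHNRNPU replicate 1. Others were at 122120000 on chromosome 11 by BLID and at 57840000 on chromosome 18 by ATP8B1. Clean merges and clean splits were thus few in both sets, and the intervals of their shares overlapped.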

How the data were processed

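Hi-C domain maps of 4 H1 libraries, 2 per group, were analysed, with groups and replicate numbers as the sample titles give them. Deposited by the authors for each library were interval positions of domains, boundary regions and gaps (other values: chromosome, start and end), all at multiples of 40 kb. The submitters' processing notes name hg38 and Bowtie2. Matrix normalization, domain caller and settings are not given in the sources used here, and can change the number and length of domains. Depth is unknown.

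Domain ends were matched within 40 kb between libraries as described. Positions of starts are printed counting from 1. Gene extents, start sites and promoters came from RefSeq tables (GRCh38.p14) and covered start sites of 15100 of 18408 protein-coding genes (82.0%) on 21 autosomes. GC content, HindIII sites and the CTCF core over whole border windows were planned and not run, as no genome sequence was used here. Named borders, all more than 120 kb from gaps, were up to 8 clean merges with the longest covering domain, the 4 farthest from the knockdown, those by a listed gene, and exchanged counterparts. Members and lists were chosen with earlier results of these data known. No test was run, since the members were chosen by their presence. Wilson intervals (95%) cover counting error only. The rule was tried on simulated maps made from shLUC replicate 1. Some borders were removed or added, and others moved by at most 40 kb. The rule could not call the others there, so the rate of false calls in these data was not measured. Python 3.11.15, numpy 2.4.6, pandas 2.3.3, scipy 1.17.1 and matplotlib 3.10.9 were used. Alternatives were other matching and absence distances, other anchor library, one-to-one matching, domains of at least 3 bins, borders away from gaps, window width, a replicate block and leaving out libraries or chromosomes.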

Additional observations from a re-analysis of the deposited data

How the results depend on the processing

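The number of borders called depended on the distances. Requiring the same bin gave 208 control-only and 108 knockdown-only borders, and absence within 80, 120 and 200 kb gave 252, 201 and 131 against 113, 76 and 51. Leaving out each library in turn gave 649 to 1076 control-only and 447 to 847 knockdown-only borders, the most without shLUC replicate 2 and without shHNRNPU replicate 1. Pairing libraries by replicate number as a block gave 1522 (number 1) and 2041 (number 2) control borders absent from the knockdown, against 1400 and 1325 the other way. Nothing in the labels ties a replicate number to a common culture. Control-only borders outnumbered knockdown-only ones under each of these settings except without shHNRNPU replicate 2 (649 against 810). Where a library is left out the 2 directions follow unlike rules, so those counts are not a like comparison. The other planned settings stayed within 1.5 times: 391 and 217 from the other library of each pair, 551 and 285 with matching within 80 kb, 313 and 177 away from gaps, 382 and 198 with domains of at least 3 bins, and 388 and 202 with one-to-one matching. The full-loss share (52.8%) was 66.1% and 34.4% with 80 and 200 kb as the limit. Leaving out shHNRNPU replicate 1 or 2 gave 69.6% or 56.2% full loss and 97.4% or 92.4% inside a domain. A gene start lay within 80 kb of 70.7% of control-only, 58.5% of kept and 56.3% of knockdown-only borders, and, away from gaps, within 40 kb of 48.8% of kept borders. Of the 17 named control-only borders 12 were not called when the same bin was required, and 5 with absence within 200 kb. Leaving out chromosome 17 (356 and 194), the shares without 1 shHNRNPU library and the shares without chromosomes 16, 17, 19, 20 and 22 were chosen after seeing the data. Sequence content of whole windows was not run. Unknown depth limits all counts.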
